A study of Homo sapiens with 8 samples.

Results

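The numbered zinc finger genes of human chromosome 19 were followed through RNA immunoprecipitation (RIP) of ribosomal protein S6 (RPS6), a component of the small ribosomal subunit, in 4 cancer cell lines. Members were all genes listed on chromosome 19 whose symbol is ZNF followed by a number, with or without 1 closing letter. The rule found 266 of the 57756 genes of the table, under 261 symbols, because 5 symbols have 2 entries. They are 47.3% of the 562 genes that meet the same name rule on any chromosome. RefSeq lists 245 of the symbols as protein coding and 16 as pseudogenes.

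Zinc finger proteins of this type bind DNA through arrays of C2H2 fingers, each of which reads a few bases. Most of those on chromosome 19 also carry a KRAB domain, which recruits the corepressor TRIM28 and, through it, the histone methyltransferase SETDB1 and heterochromatin protein 1. The best known targets of this machinery are transposable elements. The genes arose by tandem duplication and lie in clusters, so that neighbours can be close in sequence.

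The RNA bound to RPS6 and the lysate set aside as input were sequenced from Hep3B, a hepatocellular carcinoma line, HCT116 from colorectal carcinoma, DU145 from prostate carcinoma, and SW1990 from pancreatic carcinoma. The labels give no drug treatment, transfection or genetic change for any of the lines, and the 2 groups compared are the RPS6 RIP and the input. There was 1 RIP and 1 input library per line, 8 libraries in all. With the cell line as a block, p-values measured the difference of RIP from input against its spread over the lines. Differences between lines had no test. The titles and the study call the liver line Hep3B, whereas its cell line label reads Huh7; it is called Hep3B here.

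Libraries held between 34630359 and 54209627 fragments. The liver line carried its lineage markers, with 7 of 7 liver genes at 1 FPKM or more in the input. FPKM are fragments per kilobase of transcript and per 1000000 fragments. Markers of the other tissues did not single out their lines. Of 6 colon genes 1 reached 1 FPKM in HCT116, 1 each in Hep3B and DU145, and 3 in SW1990. Of 5 prostate genes 1 did in DU145, 1 in Hep3B, 2 in HCT116 and 3 in SW1990. In SW1990 4 of 6 pancreatic duct genes did, and 3 of the 6 did in each of the other lines. Of 5 listed nuclear RNAs, 1 was too low to be tested, KCNQ1OT1 did not pass, and edgeR's quasi-likelihood test placed MALAT1 (log2 fold change −3.04 ± 0.37, SE), NEAT1 (−2.93 ± 0.30) and TUG1 (−1.64 ± 0.19) lower in RIP than in input. In each culture, fewer cells holding a transcript and less of it per cell cannot be told apart.

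The members lie along chromosome 19 in 18 blocks, where a block ends at a gap of more than 1000000 bases between neighbouring starts. The blocks are numbered along the chromosome, and 6 of them hold 20 or more members each and 227 members together. Positions of genes are those of the deposited table in human genome version 19. The table gives 1 span for each group of overlapping genes, and 190 of the 266 members share their span with another entry of the table, 113 of them with another member. The estimated counts of such genes were split between them by the authors' software.

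Promoter sequences are shown first, for 3 genes of 1 block of chromosome 19 with opposite states in HCT116. ZNF146 was at a high level in all 4 inputs, and ZNF260 and ZNF382 were missing from HCT116. Each window runs from 250 bases before to 50 bases after a transcription start in RefSeq (GRCh38.p14), 5′ to 3′ on the gene's strand, with CG dinucleotides in capitals. The window of ZNF146 is chr19:36214856-36215155 on the plus strand and holds 24 CG, that of ZNF260 is chr19:36528222-36528521 on the minus strand and holds 20, and that of ZNF382 is chr19:36605063-36605362 on the plus strand and holds 27.
ZNF146: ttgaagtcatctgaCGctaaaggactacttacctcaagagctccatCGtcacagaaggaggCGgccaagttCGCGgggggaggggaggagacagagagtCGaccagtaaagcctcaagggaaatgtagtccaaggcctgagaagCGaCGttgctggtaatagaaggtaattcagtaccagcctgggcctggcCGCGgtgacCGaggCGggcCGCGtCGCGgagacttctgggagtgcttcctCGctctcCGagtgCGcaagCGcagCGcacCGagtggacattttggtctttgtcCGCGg
ZNF260: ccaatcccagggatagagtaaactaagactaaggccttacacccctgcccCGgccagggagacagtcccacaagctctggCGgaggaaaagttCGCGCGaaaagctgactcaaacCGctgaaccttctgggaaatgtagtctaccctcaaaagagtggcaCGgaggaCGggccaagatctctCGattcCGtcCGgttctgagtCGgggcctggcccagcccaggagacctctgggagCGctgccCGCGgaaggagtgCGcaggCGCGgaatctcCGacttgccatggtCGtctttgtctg
ZNF382: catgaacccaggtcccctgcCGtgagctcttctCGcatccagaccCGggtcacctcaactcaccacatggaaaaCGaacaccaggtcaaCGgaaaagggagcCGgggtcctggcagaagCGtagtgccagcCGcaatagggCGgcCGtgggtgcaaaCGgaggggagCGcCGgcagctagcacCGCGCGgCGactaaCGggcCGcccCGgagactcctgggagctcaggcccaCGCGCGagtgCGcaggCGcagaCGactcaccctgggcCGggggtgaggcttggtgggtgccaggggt

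A second pair shows the letters CCGGAAG, the core of the site bound by ETS factors, in capitals where they occur on either strand (CTTCCGG on the other). ZNF43, at chr19:21836133-21836432 on the minus strand, holds it once. ZNF528, at chr19:52397599-52397898 on the plus strand, holds it 2 times. Both genes were expressed in Hep3B and nearly absent from HCT116.
ZNF43: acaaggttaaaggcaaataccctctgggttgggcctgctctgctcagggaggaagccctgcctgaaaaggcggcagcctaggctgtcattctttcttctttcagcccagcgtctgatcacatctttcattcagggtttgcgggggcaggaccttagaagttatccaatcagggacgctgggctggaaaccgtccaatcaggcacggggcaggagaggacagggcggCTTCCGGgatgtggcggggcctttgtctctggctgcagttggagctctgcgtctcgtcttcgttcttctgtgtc
ZNF528: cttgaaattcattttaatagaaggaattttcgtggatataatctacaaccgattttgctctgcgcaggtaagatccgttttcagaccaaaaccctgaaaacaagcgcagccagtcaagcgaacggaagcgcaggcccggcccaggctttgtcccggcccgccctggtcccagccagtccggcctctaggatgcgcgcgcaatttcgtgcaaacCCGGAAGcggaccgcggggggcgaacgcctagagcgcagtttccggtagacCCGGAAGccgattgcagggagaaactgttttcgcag

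Of the 261 symbols, 215 had at least 1 promoter window in RefSeq, with 263 windows in all. CCGGAAG on either strand was in 39.9% of these windows, against 10.3% of the 35116 windows of all genes, 28.9% of those of zinc finger genes on other chromosomes and 13.3% of those of the other genes of chromosome 19. The median number of CG dinucleotides was 20, against 14 over all windows and 21 over the other genes of chromosome 19. Windows of members expressed in all 4 inputs had a median of 21.5, and windows of members absent from HCT116 but present elsewhere had a median of 19. CCGGAAG was in 42.6% of the former and 37.5% of the latter. Counted by gene, with a match in any window, the shares were level, at 49.5% and 50%. Matches describe the letters of these windows and were not tested against expression.

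The first comparison asked which members were found with RPS6 at another level than in the input. Members were mostly lower in RIP. Of 243 members with enough counts to be tested, 108 (44.4%) fell and 25 (10.3%) rose by edgeR's quasi-likelihood test with the cell line as a block (Benjamini-Hochberg adjusted over 19921 genes). The remaining 110 passed in neither direction, and 23 members were too low to be tested. The background over all genes was 24.9% lower and 26.5% higher, 51.4% in either direction.

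The median log2 fold change was −1.02 over the 243 members, with 195 of them below 0, and −0.05 over all genes tested. Of the members that fell, 100 of 108 were lower by 2-fold or more, and 20 of the 25 that rose were higher by 2-fold or more. In FPKM, 66 of the 108 were lower in RIP in all 4 lines and 99 in 3 or more, and all 25 that rose were higher in 4 of 4 lines. The test itself selects for agreement between lines, and the same counts over all called genes were not made. Of the 108, 33 were under 0.1 FPKM in at least 1 input, as were 2 of the 25. Since a member had to pass the filter on low counts, the shares that fell and rose cover the tested members, not all 266.

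**Figure D1:**
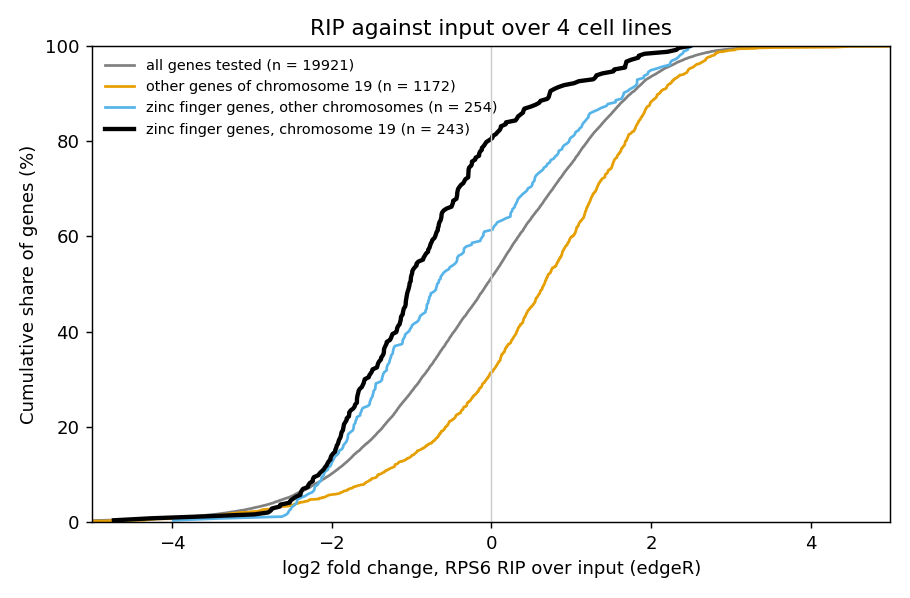
Cumulative share of genes (%) against the fitted log2 fold change of RPS6 RIP over input, for 4 sets of genes. The black curve of the 243 zinc finger genes of chromosome 19 lies to the left of all genes tested over most of its range, with a median of −1.02 against −0.05, and the orange curve of the other genes of chromosome 19 lies to the right, with a median of 0.67.

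Zinc finger genes on other chromosomes fell about as often, with 111 of 254 lower (43.7%), but 65 of them (25.6%) rose, and their median was −0.67. The other genes of chromosome 19 had the opposite direction. Of 1172 tested, 504 (43.0%) rose and 102 (8.70%) fell, and their median log2 fold change was 0.67. These sets were described by their counts, and the differences between them were not tested.

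The size of the shift depended on the scale. On log2(FPKM + 1), limma with the same block called 38 of 206 members lower (18.4%, with a background of 20.1%) and 27 higher (13.1%, with a background of 28.6%), and the median of the members was −0.29, against 0.13 over all genes. With a pseudocount of 0.1, 43 were lower (20.9%, background 21.0%) and 27 higher (background 29.3%). On that scale the share that fell was near the background, and the share that rose was below it. FPKM and counts differ by the transcript length that the authors' software used, and this implied length was shorter in RIP than in input in every line. The median log2 change in implied length of the members was −0.48, −0.25, −0.25 and −0.20 (Hep3B, HCT116, DU145 and SW1990), against −0.25, −0.13, −0.15 and −0.11 over all genes. The part of the length in the difference between the scales was not tested.

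Taken line by line in FPKM, the median log2 ratio of RIP to input of the members with a mean of at least 1 FPKM in the pair was −0.34 for the 221 such members of Hep3B, 0.0036 for the 131 of HCT116, −0.30 for the 192 of DU145 and −0.35 for the 172 of SW1990, with a mean of −0.25 ± 0.17 (SD, n = 4). Over all genes these medians were 0.24, 0.15, 0.14 and 0.13. Members at least 2-fold lower in RIP numbered 54, 21, 39 and 44 (24.4%, 16.0%, 20.3% and 25.6%), with backgrounds of 15.7%, 18.9%, 19% and 22.5%. Members at least 2-fold higher numbered 20, 17, 15 and 26 (9.05%, 13.0%, 7.81% and 15.1%), with backgrounds of 25.4%, 25.9%, 24.0% and 26.4%. In all 4 lines, then, few members were enriched, whereas the share that was depleted was above the background by a wide margin in Hep3B and below it in HCT116.

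In fragments the direction was the same in each line. All members together took 4095, 2216, 2841 and 3891 per 1000000 fragments in the inputs and 2649, 1566, 1857 and 2712 in the RIP libraries, in the same order of lines.

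In what follows, 4 values of a group are in the order Hep3B, HCT116, DU145 and SW1990. Log2 fold changes are given with their SE and the adjusted p of edgeR's quasi-likelihood test. The SE was not fitted directly but was the absolute log2 fold change divided by the square root of the test's F value. By limma on log2(FPKM + 1), 11 of the genes named below lost their call, and 10 did with a pseudocount of 0.1. These 10 are ZNF66, ZNF91, ZNF302, ZNF331, ZNF350, ZNF528, ZNF540, ZNF571, ATRX and MORC3, and the other is ZNF808. All of them kept their direction. Only genes with a mean of at least 1 FPKM over the libraries entered limma. ZNF321P, ZNF835 and the entry of ZNF709 with a call by edgeR were below this and had no test there.

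The members that fell most with 1 direction in all lines were led by ZNF321P, a transcribed pseudogene of block 17 (chr19:53430387-53541151, a span it shares with other genes). It had 19, 11, 39 and 48 fragments in the inputs and 0, 0, 4 and 0 in the RIP libraries (log2 fold change −4.73 ± 1.20, adjusted p = 0.00745 by edgeR). Few fragments carried this value. Without DU145 all its RIP libraries left were at 0 and the fitted value of −7.58 depends on the prior count, and without SW1990 it was too low to be tested. The symbol ZNF709 has 2 entries on 1 span, and 1 of them is among the 10. This entry (chr19:12490002-12750912) had 52, 10, 117 and 125 fragments in the inputs and 0, 0, 0 and 79 in RIP (−4.27 ± 1.41, adjusted p = 0.0268 by edgeR), so that its SW1990 pair differed far less than the other pairs. The call was lost without Hep3B, without HCT116 or without DU145 (log2 fold changes of −3.04, −4.12 and −3.03, adjusted p of 0.0874, 0.0625 and 0.0916 by edgeR), and without SW1990, with no RIP fragment left, the fitted value of −8.47 depends on the prior count too. The other entry had 66, 4, 19 and 109 fragments in the inputs and 43, 7, 66 and 73 in RIP (0.72 ± 0.69, adjusted p = 0.408 by edgeR). In DU145 the first entry went from 117 fragments to 0 while the second went from 19 to 66. The counts of this span were split between its genes by the authors' software. The call covers 1 of the entries, and the symbol as a whole was not tested.

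Another 5 of the 10 lie in block 7, which spans chr19:19779604-24312654 on the short arm and holds the ZNF91 family. ZNF493 had 10.4, 0.174, 1.66 and 5.75 FPKM in the inputs and 0.568, 5.18e-06, 0.10 and 1.33 in RIP (log2 fold change −3.59 ± 0.48, adjusted p = 0.000139 by edgeR). RIP was below input in each pair. ZNF708 had 6.07, 2.08, 1.11 and 5.12 FPKM in the inputs and 1.71, 0.160, 0.160 and 0.729 in RIP (−2.97 ± 0.40, adjusted p = 0.000160 by edgeR), and its RIP values overlapped the inputs only through Hep3B. ZNF431 had 12.3, 5.48, 4.47 and 6.78 FPKM in the inputs and 4.26, 0.826, 1.35 and 0.348 in RIP (−2.64 ± 0.38, adjusted p = 0.000233 by edgeR), with every RIP value below every input.

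ZNF675 had 10.9, 0.514, 3.39 and 6.85 FPKM in the inputs and 2.17, 0.0948, 1.40 and 2.94 in RIP (−2.53 ± 0.36, adjusted p = 0.000211 by edgeR). ZNF66 had 11.5, 0.0142, 1.14 and 3.17 FPKM in the inputs and 2.54, 0, 0.605 and 0.164 in RIP (−2.48 ± 0.70, adjusted p = 0.0127 by edgeR). In both genes HCT116 was far below the other lines and the 2 groups overlapped between lines. The call of ZNF66 was lost without Hep3B (−2.61, adjusted p = 0.0537 by edgeR) or without SW1990 (−1.75, adjusted p = 0.0654 by edgeR).

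The other 3 of the 10 were ZNF540 and ZNF461 of block 11 and ZNF112 of block 14. ZNF540 was a gene of SW1990, with 22.0 FPKM there in the input and 6.58 in RIP, and between 0.0214 and 0.578 FPKM in the other inputs (log2 fold change −2.80 ± 0.44, adjusted p = 0.000424 by edgeR). ZNF461 had 3.21, 0.133, 3.43 and 2.67 FPKM in the inputs and 0.868, 0.0120, 0.727 and 1.23 in RIP (−2.65 ± 0.85, adjusted p = 0.0238 by edgeR). In fragments its Hep3B pair went from 165 to 1, and without Hep3B the log2 fold change was −1.75, still past the threshold (adjusted p = 0.0154 by edgeR). ZNF112 had 3.79, 0.651, 1.26 and 1.71 FPKM in the inputs and 0.608, 0.155, 0.305 and 0.688 in RIP (−2.52 ± 0.39, adjusted p = 0.000350 by edgeR). In ZNF112 and ZNF461 the input was above the RIP of its own line in all 4 lines.

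Of the 25 members that rose, 14 lay in block 18 at the end of the long arm. That block is the largest, with 61 tested members, and its share that rose, 23.0%, was near the background of 26.5%. ZNF628, the first gene of block 18 (chr19:55987349-55995854), had 1.75, 3.73, 2.88 and 3.67 FPKM in the inputs and 10.7, 12.2, 18.1 and 20.8 in RIP. Every RIP library was above every input, and the log2 fold change was 2.48 ± 0.20 (adjusted p = 1.33e-05 by edgeR). ZNF574 of block 13 (chr19:42502472-42585701) had 4.61, 6.77, 8.61 and 9.74 FPKM in the inputs and 23.2, 40.0, 32.3 and 32.4 in RIP (2.35 ± 0.22, adjusted p = 2.04e-05 by edgeR), again with no overlap. ZNF324 had 2.34, 2.79, 2.21 and 4.02 FPKM in the inputs and 10.5, 12.7, 9.90 and 24.3 in RIP (2.32 ± 0.19, adjusted p = 1.37e-05 by edgeR).

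ZNF324 lies at chr19:58978422-58984945 beside its close relative ZNF324B at chr19:58962970-58969200, and each has a span of its own in the table. ZNF324B had 2.95, 4.95, 3.31 and 2.66 FPKM in the inputs and 8.68, 15, 9.51 and 17.5 in RIP (log2 fold change 1.84 ± 0.22, adjusted p = 7.14e-05 by edgeR). SW1990 gave the highest RIP value of both. ZNF446, next along the chromosome, had 1.81, 1.70, 0.954 and 4.59 FPKM in the inputs and 5.35, 6.31, 7.76 and 19.3 in RIP (2.20 ± 0.21, adjusted p = 2.24e-05 by edgeR). The RIP libraries stood above the inputs in all 3 genes, without overlap.

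A further 4 of the 10 had log2 fold changes between 1.69 and 1.85 by edgeR: ZNF865 (1.85 ± 0.19), ZNF296 (1.76 ± 0.35), ZNF837 (1.69 ± 0.24) and ZNF526 (1.69 ± 0.19). ZNF296 was the lowest of them in the inputs, with 0.557, 2.76, 0.882 and 2.02 FPKM, and had 3.26, 6.07, 2.15 and 5.59 in RIP. The remaining one, ZNF835, rested on 1 line. It had 174 fragments in the Hep3B input and 619 in its RIP, and between 0 and 3 fragments in each of the other 6 libraries (1.92 ± 0.60, adjusted p = 0.0211 by edgeR). Without Hep3B it was too low to be tested.

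**Figure D2:**
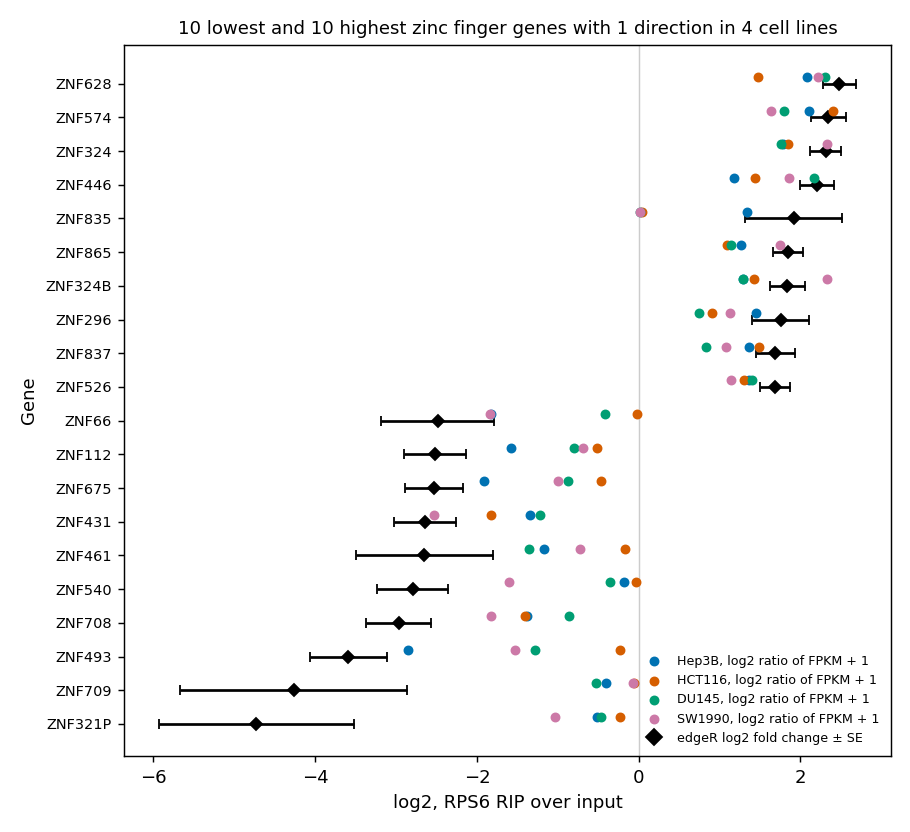
Log2 fold change of RPS6 RIP over input for the 10 members that rose most and the 10 that fell most with 1 direction in all 4 cell lines; diamonds with bars are the edgeR estimate ± SE and coloured points are the log2 ratio of FPKM + 1 within each line. Estimates run from −4.73 for ZNF321P to 2.48 for ZNF628, and the points lie nearer to 0 than the diamonds where a gene was at a low level, as for ZNF835 in 3 lines.

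Some of the best expressed members also fell. ZNF121 had 66.6, 39.4, 50.2 and 36.7 FPKM in the inputs and 21.1, 8.69, 12.3 and 11.6 in RIP (log2 fold change −2.27 ± 0.20, adjusted p = 1.55e-05 by edgeR), with no overlap between the groups. ZNF562, its neighbour in block 3, had 40.7, 20.8, 20.5 and 13.3 FPKM in the inputs and 12.5, 6.63, 10.0 and 8.50 in RIP (−1.60 ± 0.20, adjusted p = 8.39e-05 by edgeR). Each RIP value was below every input value in both.

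ZNF146, also known as OZF, consists of fingers without a KRAB domain. It had 42.2, 59.6, 56.1 and 58.4 FPKM in the inputs and 49.7, 26.6, 22.4 and 28.0 in RIP (log2 fold change −1.31 ± 0.20, adjusted p = 0.000290 by edgeR). In FPKM its Hep3B pair went the other way from the rest. In recovered fragments all 4 pairs were lower in RIP, with 4319, 9287, 11547 and 8481 in the inputs and 2042, 2466, 2004 and 2501 in RIP.

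Among the other highly expressed members, ZNF787 rose, with 30.5, 18.5, 29.9 and 26.9 FPKM in the inputs and 73.8, 46.4, 60.3 and 60.8 in RIP (1.32 ± 0.18, adjusted p = 0.000139 by edgeR). ZNF544 (−0.12 ± 0.19) and ZNF428 (−0.20 ± 0.23) did not pass the test by edgeR. ZNF544 had 26.0, 24.5, 22.7 and 89.4 FPKM in the inputs, so that SW1990 stood far above the other lines. Across the 243 tested members Spearman's rho between the log2 fold change and the mean input FPKM was 0.08, and that with the implied transcript length relative to all genes was 0.18. These are descriptions across genes, which share libraries and are not independent.

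Of 15 members with a role known from other work, 6 fell, 2 rose and 7 did not pass by edgeR, beside the 24.9% that fell and 26.5% that rose over all genes tested. ZNF91, which represses SVA and L1 retrotransposons, had 10.8, 1.87, 4.23 and 8.84 FPKM in the inputs and 2.58, 0.371, 3.03 and 11.9 in RIP (log2 fold change −1.13 ± 0.27, adjusted p = 0.00538 by edgeR). In FPKM its RIP was above the input in SW1990, whereas in fragments all 4 pairs were lower in RIP, with 1209 and 591 in SW1990. ZNF93, its relative with L1 targets, had 305, 2, 66 and 18 fragments in the inputs and 113, 2, 7 and 1 in RIP, and its log2 fold change of −1.78 ± 0.69 just missed the threshold (adjusted p = 0.0526 by edgeR). It passed without HCT116, where it was nearly absent.

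ZNF274, which binds the ends of other zinc finger genes and brings in SETDB1, was one of the 2 that rose. It had 28.5, 3.51, 8.66 and 2.18 FPKM in the inputs and 69.4, 12.3, 16.5 and 9.33 in RIP (0.84 ± 0.20, adjusted p = 0.00467 by edgeR). RIP was above input in each line, while the groups overlapped because Hep3B was high in both. ZNF473, a component of the machinery that processes histone pre-mRNA, had 10.1, 6.68, 4.06 and 9.36 FPKM in the inputs and 11.4, 11.2, 8.20 and 24.4 in RIP (0.73 ± 0.19, adjusted p = 0.00929 by edgeR).

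The imprinted gene ZNF331 fell, with 22.5, 0, 21.5 and 3.73 FPKM in the inputs and 10.5, 0, 16.9 and 1.17 in RIP (−1.38 ± 0.30, adjusted p = 0.00366 by edgeR), and had no fragment in either HCT116 library. Its call was lost on FPKM (adjusted p of 0.0792 and 0.106 by limma with pseudocounts of 1 and 0.1). ZNF224, a transcriptional repressor with a KRAB domain, fell by edgeR (−1.89 ± 0.50, adjusted p = 0.00979), as did ZNF808 (−1.07 ± 0.27, adjusted p = 0.00741), a gene needed for pancreas development. ZNF350, a partner of BRCA1, had a log2 fold change of −1.35 ± 0.49 (adjusted p = 0.0409 by edgeR), and the call was lost on leaving out any 1 line (adjusted p between 0.0618 and 0.110 by edgeR), while the log2 fold change stayed between −1.50 and −1.13.

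ZNF154, ZNF671, ZNF382, ZNF420, ZNF568 and ZNF43 did not pass by edgeR, with log2 fold changes of −0.79 ± 0.68, −1.71 ± 0.88, −1.31 ± 0.60, −0.24 ± 0.34, 0.55 ± 0.62 and −0.94 ± 0.46. ZNF154 and ZNF671, both known for promoter methylation in tumours, were low in every input, between 0.129 and 1.12 FPKM. For ZNF420, a KRAB protein that restrains p53, the inputs held 1.99, 0, 3.84 and 7.03 FPKM.

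The corepressor genes with which KRAB proteins act went in both directions. Of 22 genes in the list, 11 rose and 8 fell by edgeR (backgrounds of 26.5% and 24.9%), with a median log2 fold change of 0.40. TRIM28, itself on chromosome 19, had 201, 408, 153 and 239 FPKM in the inputs and 1555, 4276, 1194 and 2589 in RIP (log2 fold change 3.33 ± 0.25, adjusted p = 1.27e-05 by edgeR). Each RIP library was far above each input. The methyltransferase SETDB1 had 19.6, 9.37, 28.6 and 10.3 FPKM in the inputs and 29.2, 35.0, 53.6 and 26.2 in RIP (1.58 ± 0.26, adjusted p = 0.000586 by edgeR).

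EHMT2 (2.13 ± 0.20) and EHMT1 (1.85 ± 0.20), which methylate histone H3, DNMT1 (1.81 ± 0.28), which maintains DNA methylation, and its partner UHRF1 (1.53 ± 0.22) rose by edgeR, as did MORC2, CHD4, CHD3, DAXX and HDAC1. The transcripts of heterochromatin protein 1 fell. CBX3 had 339, 190, 135 and 287 FPKM in the inputs and 104, 41.7, 33.0 and 41.0 in RIP (−2.70 ± 0.21, adjusted p = 1.27e-05 by edgeR), and CBX1 (−2.25 ± 0.18) and CBX5 (−1.07 ± 0.27) fell too by edgeR. MPHOSPH8, PPHLN1 and FAM208A, the subunits of the HUSH complex, fell by edgeR with log2 fold changes of −1.79 ± 0.26, −0.99 ± 0.21 and −0.98 ± 0.18, and so did ATRX and MORC3. ATF7IP, HDAC2 and SMARCAD1 did not pass.

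The second comparison asked in which of the cell lines the members were expressed. HCT116 stood apart. In the inputs 217, 132, 193 and 178 members reached 1 FPKM (81.6%, 49.6%, 72.6% and 66.9%, with backgrounds over all 57756 genes of 27.4%, 25.6%, 27.6% and 26.9%). Members under 0.1 FPKM numbered 22, 95, 28 and 39 (8.27%, 35.7%, 10.5% and 14.7%, with backgrounds of 57.9%, 60.2%, 58.5% and 59.9%). The median member was at 4.29, 0.909, 2.22 and 2.75 FPKM. In fragments, which do not rest on a transcript length, the median member had 10.2, 2.49, 6.17 and 7.42 per 1000000. The FPKM of all genes summed to 1659970 in the Hep3B input and to between 884796 and 981929 in the other inputs, so that FPKM of different lines are not on exactly 1 scale. These are values of 1 input per line, without a replicate.

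A member is called on where it reached 1 FPKM and off where it was under 0.1 FPKM. Of the 266 members, 234 were on in at least 1 input, 115 were on in all 4 and 9 were off in all 4. Of the 234, 81 (34.6%) were on in 1 line or more and off in another, with a background of 22.8% over all genes. The same share was 13.1% for zinc finger genes on other chromosomes (32 of 245) and 22.4% for the other genes of chromosome 19.

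Most of this came from HCT116. Of the 234 members on in at least 1 other input, 69 (29.5%) were off in HCT116, with a background of 12.0%. In zinc finger genes on other chromosomes the share was 8.61%, and in the other genes of chromosome 19 it was 10.7%. In SW1990 28 of 222 members (12.6%) were off, with a background of 12.3%, in DU145 10 of 232 (4.31%, background 9.09%), and in Hep3B 5 of 217 (2.30%, background 11%). The HCT116 input alone was thus well above its background, and the share of SW1990 was near it.

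Of the 69 members, 64 had 3 fragments or fewer in the HCT116 input, which held 45572102 fragments, and the highest had 12. The median of the 69 was 0 fragments in that input and 305 in the input of Hep3B. In the RIP library of HCT116, 63 of the 69 were under 0.1 FPKM too, and none reached 1 FPKM. This was common to genes off in that input. Over all genes, 2364 were on elsewhere and off in the HCT116 input, and 2019 of these were off in its RIP and 80 on. Among zinc finger genes on other chromosomes, 21 of 21 were off in its RIP. For 25 of the 69 members, both HCT116 libraries held 0 fragments, which allows up to 3 fragments, or 0.0658 per 1000000 in the input. In the other lines 62 of the 69 were on in Hep3B, 45 in DU145 and 33 in SW1990, at medians of 3.62, 1.61 and 0.452 FPKM.

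Members on in the other 3 lines and off in HCT116 alone numbered 23, or 9.83% of the 234, with a background of 0.712% of the 20367 genes on in any input. The same pattern was found for 4 members in SW1990 (1.71%, background 0.584%), and for no member in Hep3B (background 1.24%) or DU145 (background 0.260%). Among the 115 members on everywhere, HCT116 was the lowest line for 49, DU145 for 37, SW1990 for 18 and Hep3B for 11. Hep3B was the highest for 48 and SW1990 for 46. These ranks have no background, since they were not taken over the 11700 genes on in all 4 inputs. They also rest on FPKM, which are not on exactly 1 scale between lines.

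**Figure D3:**
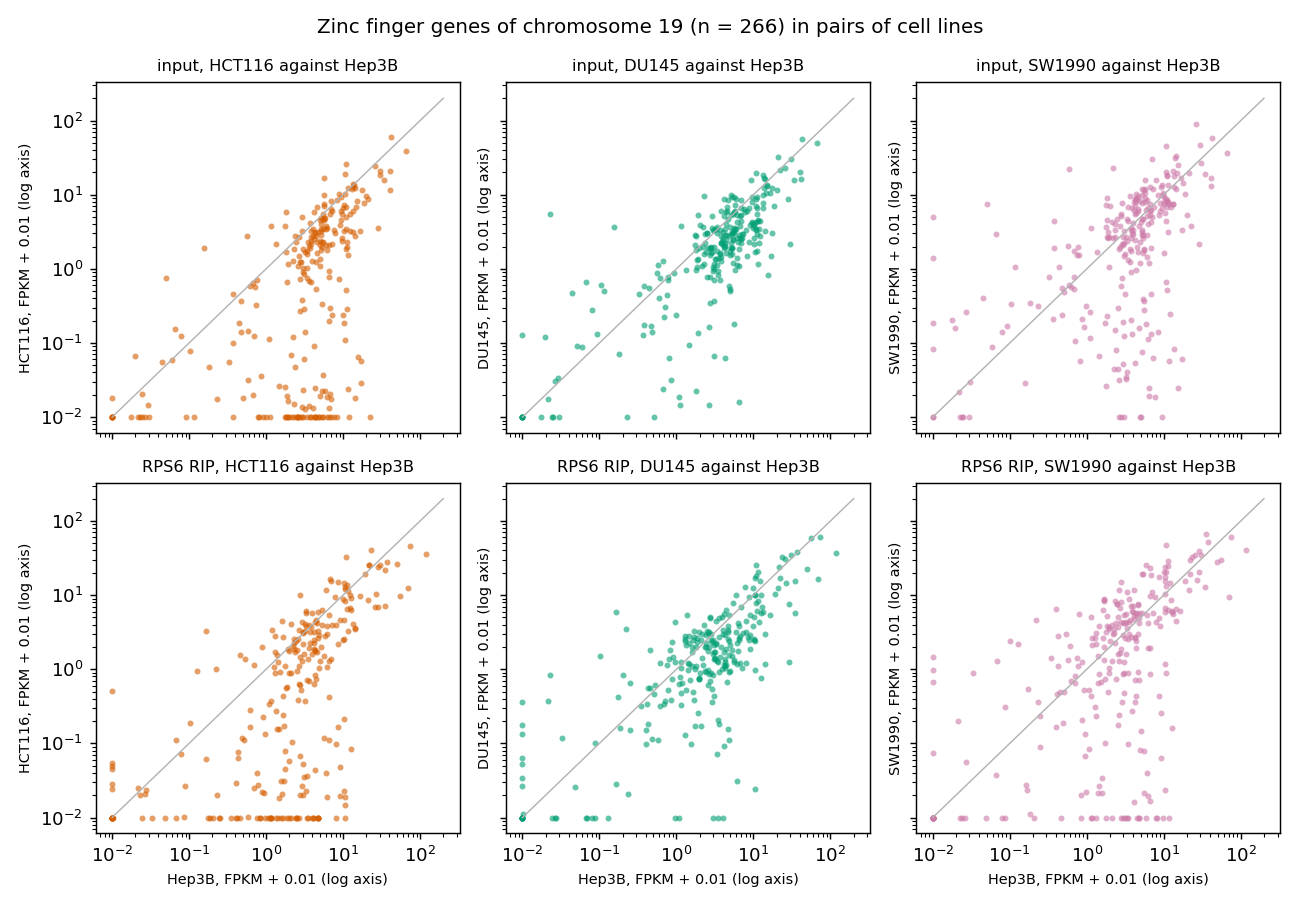
Level of each of the 266 members (FPKM + 0.01, log axes) in HCT116, DU145 and SW1990 against Hep3B, in the inputs (top) and the RPS6 RIP libraries (bottom), with the line of equal level in grey. A band of members along the floor of the HCT116 panels, far from the line, holds genes at 1 to 10 FPKM in Hep3B, and it is present in input and RIP.

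The 8 members with the widest range between inputs were taken among those whose highest and lowest lines were the same in the RIP libraries, and their levels are a description. ZNF43 of the ZNF91 family had 15.4, 0.0539, 0.817 and 0.0146 FPKM in the inputs and 6.60, 0.101, 1.21 and 0.00694 in RIP. ZNF880 had 17.0, 0.0473, 1.47 and 0.0506 FPKM in the inputs and 12.6, 0.0748, 0.743 and 0.154 in RIP. ZNF528 had 17.3, 0.0189, 3.04 and 3.37 FPKM in the inputs and 10.6, 0.00872, 0.982 and 0.879 in RIP. All 3 were highest in Hep3B, and none had more than 4 fragments in either HCT116 library.

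ZNF260 was highest in SW1990, with 14.4, 0.00803, 10.4 and 33.2 FPKM in the inputs and 2.76, 0.00998, 2.95 and 4.31 in RIP, and its 3 expressing lines were all lower in RIP (log2 fold change −2.75 ± 0.27, adjusted p = 2.33e-05 by edgeR). ZNF571 had 2.18, 0, 3.68 and 23.1 FPKM in the inputs and 1.67, 0, 3.29 and 8.60 in RIP. It shares a span with ZNF540, and the call of ZNF571 (−1.51 ± 0.32, adjusted p = 0.00342 by edgeR) was lost without SW1990 (adjusted p = 0.0838 by edgeR), with a log2 fold change of −1.52, about the same.

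ZNF302 and ZNF428 had other lines at the bottom. ZNF302 had 13.6, 3.17, 12.3 and 0.0727 FPKM in the inputs and 9.86, 2.49, 3.83 and 0 in RIP, so that SW1990 was the line without it. ZNF428 had 29.8, 20.8, 2.17 and 47.0 FPKM in the inputs and 28.5, 24.1, 1.24 and 39.9 in RIP, with DU145 lowest.

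The third comparison set the blocks side by side. The 6 blocks of 20 or more members held 209 tested members, of which 97 fell and 16 rose by edgeR, beside the 24.9% that fell and 26.5% that rose over all genes tested. The 39 members outside them, 34 of them tested, had 11 that fell and 9 that rose. Of the 6, block 7, with the ZNF91 family, had the lowest median log2 fold change, −1.73, and 22 of its 32 tested members (68.8%) fell while none rose. Block 12, with 3 members that all fell, had a median of −1.78. In block 11 (chr19:36673187-38307940) 16 of 26 (61.5%) fell and none rose (median −1.47), in block 14 (chr19:44010870-45808541) 14 of 25 (56%) fell and 1 rose (−1.38), and in block 17 (chr19:52074550-54083523) 25 of 39 (64.1%) fell and none rose (−1.07).

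In block 4 (chr19:11562140-12750912) 5 of 26 fell (19.2%, below the background), 1 rose, and the median was −0.64. Block 18, at the end of the chromosome (chr19:55987349-59023780), was mixed. It held 14 of the 25 members that rose, 23.0% of its 61 members, and 15 of the 61 fell (24.6%), both near the background, with a median of −0.20. Block 13 has 2 members, ZNF574 and ZNF526, and both rose.

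The number of members off differed between blocks. In HCT116 26 of the 41 members of block 7 were under 0.1 FPKM, 14 of the 26 of block 11, 14 of the 30 of block 4, 14 of the 43 of block 17, 7 of the 26 of block 14 and 15 of the 61 of block 18. Over all 57756 genes, 60.2% were under 0.1 FPKM in that input, so the share of block 7 was near that of all genes and the other blocks were below it. This background includes the 26504 genes that were under 0.1 FPKM in all 4 inputs, so it does not measure absence from HCT116 in particular. In block 11 the contrast with the other lines was complete in Hep3B and DU145, with 0 members off in each, and SW1990 had 1. In block 7 the other lines had 8, 13 and 12 members off. In block 18 SW1990 had 11 members off, against 0 in Hep3B and 2 in DU145.

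**Figure D4:**
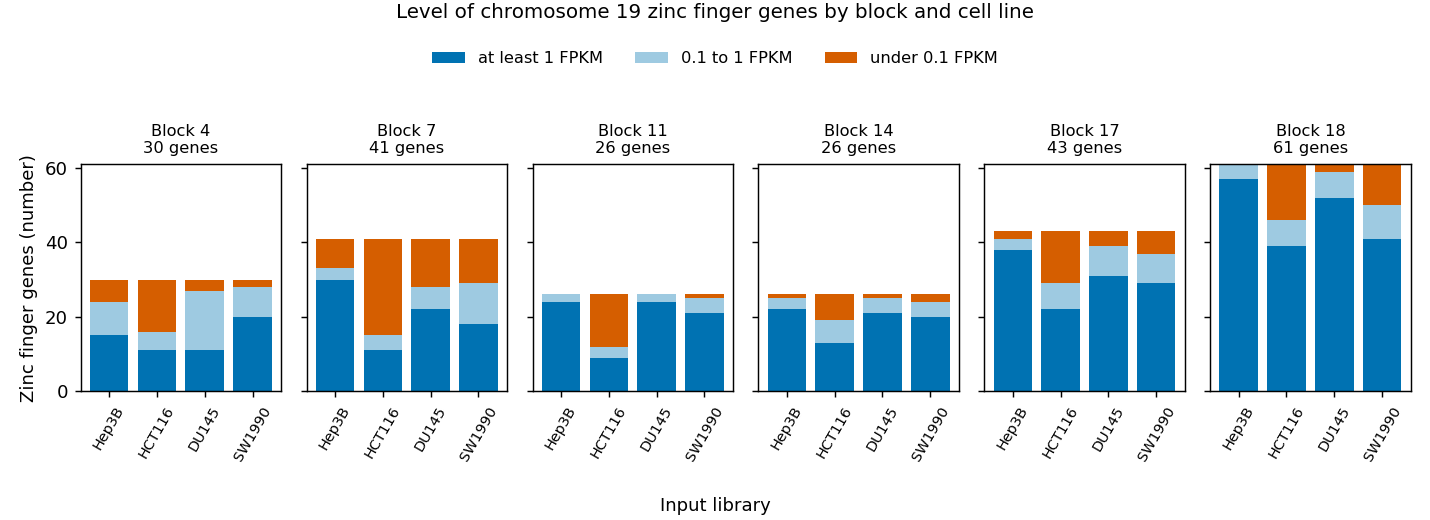
Number of members at 1 FPKM or more, at 0.1 to 1 FPKM and under 0.1 FPKM in the input of each cell line, for the 6 blocks with 20 or more members, in their order along chromosome 19. The orange part, members under 0.1 FPKM, is tallest in HCT116 in every block, from 7 of 26 in block 14 to 26 of 41 in block 7.

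Block 11 holds the genes whose promoters were printed first. ZNF146 at its edge had 59.6 FPKM in the HCT116 input, the highest of its 4 inputs. ZNF260 had 2 fragments there and ZNF382, a KRAB gene described as a tumour suppressor, had 0, and in the HCT116 RIP they had 1 and 0. ZNF382 was on in Hep3B and DU145 (3.37 and 3.65 FPKM) and at 0.0311 FPKM in SW1990, where ZNF260 was at its highest. ZNF568, also of block 11, was absent from the HCT116 input and was at 2.33, 2.93 and 0.140 FPKM in the other inputs. The 24 CG of the ZNF146 window lie between the 20 of ZNF260 and the 27 of ZNF382, and a link between CG and expression was not tested. ZNF566, which lies between ZNF146 and ZNF260, was on in the HCT116 input at 2.78 FPKM. ZNF565, which shares the span of ZNF146, was on there at 1.48 FPKM.

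Genes of these clusters are related in sequence, and the way the authors' software treated reads that match several genes is not given in the sources used here. Among the 76 members with a span of their own, 68 were tested, of which 26 fell and 12 (17.6%) rose by edgeR (backgrounds of 24.9% and 26.5%), with a median of −0.62.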

How the data were processed

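Members and gene lists were chosen with earlier results of these data known. RPS6 RIP and input of 4 cell lines were analysed, with 1 library each. Per the study's methods and the submitters' processing notes, reads were aligned to human genome version 19 with TopHat (TopHat2 2.0.9, after CASAVA 1.8); the counting tool, its annotation and its handling of strand and of reads matching several genes are not given in the sources used here. The kit kept the strand. The deposited tables hold, per library, FPKM values that the authors normalized for length and depth, and estimated counts that the authors' software scaled by 1 factor. Their 4 comparison tables repeat the FPKM and hold fold changes and p-values, which were not used.

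Estimated counts were rounded and tested with edgeR 4.0.16 (quasi-likelihood, TMM, cell line as block, mean of at least 10 counts, R 4.3.3), with Benjamini-Hochberg adjustment over 19921 genes and a threshold of 0.05. The design had assumed raw counts. DESeq2 1.42.0 and limma 3.58.1 on log2(FPKM + 1) were alternatives, as were other filters, pseudocounts and thresholds, and leaving out each cell line. Fits were tested on simulated data. The cell line pairs RIP with input by design: deviations of a RIP library and its own input from their group means correlated with r between 0.80 and 0.87 across 19921 genes, and those of other lines with r of at most −0.01. Centring on the group means itself draws the correlations between lines below 0, so these add no separate support. Within a line, values are descriptive, as log2 ratios of FPKM + 1.

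Dividing each library's estimated counts by their common step gave whole fragments, within 0.02, for between 90.1% and 92.6% of values. Depth ran from 34630359 to 54209627 fragments, and a count of 0 allows up to 3 fragments. This floor covers counting error only. On means at least 1 FPKM and off under 0.1 FPKM.

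Named members are the 10 that rose and the 10 that fell most with 1 direction in all 4 lines, the 6 with the highest mean input FPKM, the 8 with the widest range between inputs, and 15 with known roles. Named in addition are 22 corepressor genes and 5 nuclear RNAs. Symbols and promoter windows came from RefSeq tables of GRCh38.p14. Protein sequences were not used here.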

Additional observations from a re-analysis of the deposited data

Results flagged for a closer look

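Of 96 sets of 4 cell line values examined, 9 held 1 line that stood apart from the other 3 by more than the gap that chance exceeds in about 1 of 20 sets. Among so many sets, some are flagged by chance alone. Several sets also belong to members that were named for a wide range between inputs or a large fold change. HCT116 was such a line in the median log2 ratio of RIP to input over the members, at 0.0036 against −0.35 to −0.30 in the others, and in the input level of ZNF461, with a log2(FPKM + 1) of 0.18 against 1.87 to 2.15. SW1990 was the high line in the input for ZNF540, at 4.52 on the same scale against 0.03 to 0.66, and for ZNF544, at 6.50 against 4.57 to 4.76. SW1990 was also high in the log2 ratio of RIP to input of the neighbours ZNF324 (2.33 against 1.76 to 1.85) and ZNF324B (2.33 against 1.29 to 1.43).

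Hep3B stood apart for the other values. The log2 ratio of ZNF146 was 0.23 there and −1.29 to −1.04 in the other lines. ZNF835 had a log2 ratio of 1.34 in Hep3B against 0.01 to 0.04, and an input level of 1.48 against 0 to 0.02, since it was expressed in that line and nearly absent from the others. With 1 library per line and kind, none of these differences was tested.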

How the results depend on the processing

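The fit without the replicate block, in which the cell line is left out, made few calls: 10 members rose and 8 fell, 29 and 30 of the zinc finger genes on other chromosomes, 180 and 11 of the other genes of chromosome 19, 7 and 3 of the corepressor list, and 1427 and 1344 of all genes tested. On FPKM, limma called 38 members lower with a pseudocount of 1 and 43 with 0.1, and 61 and 70 of the zinc finger genes elsewhere, and the members' median was −0.29 and −0.45 (0.13 and 0.14 over all genes). The median was −0.62 over members with a span of their own, an alternative chosen after seeing the data, of which 17.6% rose. Without a minimum on counts the median of all genes was −0.60. DESeq2, recovered fragments (chosen after seeing the data) and other filters kept the members' counts within 1.5 times.

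Leaving out 1 line at a time gave 23 to 26 members that rose and 83 to 104 that fell, with medians from −1.07 to −0.94. The ranges were 54 to 64 and 94 to 109 for zinc finger genes elsewhere, 440 to 455 and 75 to 102 for the other genes of chromosome 19, and 11 and 8 throughout for the corepressor list.

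Within lines, the median log2 ratio moved to −0.58 in Hep3B and −0.15 in HCT116 when centred on all genes, and to −0.16 in SW1990 over every member. In fragments per 1000000, chosen after seeing the data, it was −1.16, −0.72, −0.94 and −0.93, so that HCT116 changed sign in both settings. Genes without a call changed sign as follows: ZNF568 to −0.15 without the block and to −0.092 without SW1990 (−0.092 to 1.20 on leaving out 1 line), SMARCAD1 to 0.20 and 0.21, ATF7IP to 0.30 and 0.32 and HDAC2 to 0.17 and 0.17 by limma with pseudocounts of 1 and 0.1, and ATF7IP to 0.074 without DU145 (−0.18 to 0.074 on leaving out 1 line). A gap of 2000000 bases gave 9 blocks. The causes were not tested. The planned split by number of fingers and KRAB match was not run, since it needs protein sequences. With 4 pairs and 1 library each, depth limits members with few fragments, such as ZNF321P and ZNF709.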
